A study of Homo sapiens with 18 samples.

Results

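The genes described here are long intergenic non-coding RNA genes, taken as the genes whose symbol begins with LINC followed by digits and whose raw read count averaged at least 20 over the 12 libraries of parental cells. The members were thus chosen by measured counts in parental libraries of both lines. There were 199 of them among 2217 such symbols and 57500 genes in all. The RNA came from 2 sarcoma cell lines. ES8 is an established Ewing sarcoma line and Rh30 an established rhabdomyosarcoma line. Cells of every group carried dCas9-KRAB, a catalytically dead Cas9 fused to a repressor domain, and were selected with puromycin for 72 h. The parental groups received either a non-targeting guide (sgCTL) or a guide against the 5′ untranslated region of DNAJC17 (sgDNAJC17), the gene of a J-domain co-chaperone of HSP70. In the ΔRRM group, cells stably expressing 3xFLAG-DNAJC17-dRRM, a cDNA without the RNA recognition motif, received sgDNAJC17. Each of these 6 groups had 3 libraries, lettered A to C. No ΔRRM library carried sgCTL, so the cDNA and the guide could not be separated within that group. The cells were plated in triplicate, so the p-values measure the spread between those platings.

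LINC symbols are placeholders for non-coding transcripts that lie apart from coding genes and mostly have no assigned function. Such RNAs are made by RNA polymerase II, are often spliced and polyadenylated, and are known for low abundance and for restriction to a few cell types. Some act on nearby genes from their own locus, some act elsewhere in the cell as RNA, and for many it is unknown whether the RNA or only its transcription matters.

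The libraries held 35342393 to 48245989 counts assigned to genes. The members took 0.0849% to 0.118% of them. DNAJC17 itself had 461 to 625 counts in sgCTL libraries, 59 to 113 in sgDNAJC17 libraries and 9849 to 14449 in ΔRRM libraries, where the cDNA also gives reads. Of 10 Ewing sarcoma marker genes, 8 were higher in ES8, and of 12 rhabdomyosarcoma marker genes, 9 were higher in Rh30 (edgeR adjusted p under 0.05 and a 2-fold change). MYCN and TFAP2B, both on the rhabdomyosarcoma list, were higher in ES8. ES8 ΔRRM library C stood apart for RNAs of the other line. The 49 members nearly absent from ES8 sgCTL cells summed to 77 counts in it against 20 and 25 in the other two ES8 ΔRRM libraries, and to 22501 to 28868 counts in Rh30 ΔRRM libraries. Levels below are counts relative to TMM-scaled library size (CPM).

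Members were short, sparsely spliced and weakly expressed next to coding genes. Their median exonic length was 2406 bases against 5031.5 for 14264 tested coding genes. They had a median of 4 merged exons against 11, and 23 members had a single exon. The median count over parental libraries was 67.8 against 989.9. They lay on 23 chromosomes, with 24 members on chromosome 1 and 7 on X. GENCODE, matched by gene ID, classed 188 of them as lncRNA, 1 as lincRNA and 10 as transcribed pseudogenes. The 5′ end of 73 members was at least 100000 bases from the nearest coding 5′ end, but 14 lay within 1000 bases of one, and 9 of those faced it head to head. Exon bases were shared with another gene in 59 members, on the opposite strand in 51. Whether counting used strand is not given in the sources used here, so reads of a member and of an antisense partner cannot be told apart.

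The steepest differences were between the lines. In sgCTL cells, 49 members had at most 3 counts in each ES8 library, 29 had at most 3 in each Rh30 library, and 121 exceeded 3 in a library of each line. Because the mean of 20 spans both lines, a member nearly absent from one line could enter only by being high in the other. That split and the following counts are therefore descriptions. Rh30 exceeded ES8 in 95 members and ES8 exceeded Rh30 in 65 at an edgeR adjusted p under 0.05 and a 2-fold change, while 22.2% and 28.7% of all 17925 genes tested were called in those directions. The 121 are described below as present in both lines, although a single library above 3 counts in each line was enough. LINC02732, nearly absent from Rh30, is among them. Of the 121, 106 had enough counts to be tested after knockdown in ES8 and 109 in Rh30. Between the lines, 46 of the 121 were higher in Rh30, 36 were higher in ES8 and 39 were not called. The strength of these calls depended on low counts in one line, and when 10 counts were required in every library, 28 members were higher in Rh30 and 23 in ES8.

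**Figure D1:**
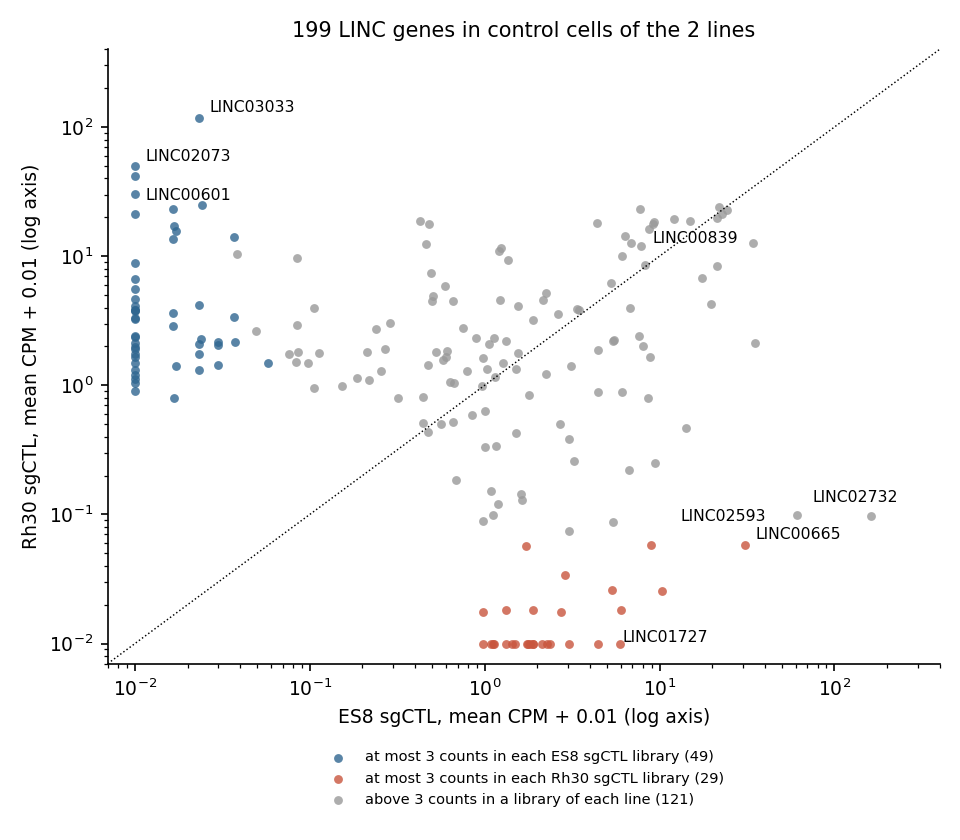
Mean CPM (TMM-scaled counts relative to library size) of the 199 members in ES8 sgCTL and Rh30 sgCTL libraries, 3 libraries each, with 0.01 added and both axes on a log scale. The dotted line marks equal levels, and 49 members along the left edge and 29 along the bottom had at most 3 counts in each library of one line.

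Per kilobase of exon, LINC02732 was the most abundant member in ES8. Its gene spans chr11:110355130-110406400 (GRCh38, plus strand), and 7471 to 8325 of its reads were counted in ES8 sgCTL libraries against 0 to 6 in Rh30. Its level of 208 ± 3.39 CPM per kb (SD, n = 3) was far above the next members, LINC02593 at 14.7 ± 0.391, LINC00674 at 10.7 ± 0.783, LINC02381 at 9.22 ± 0.504 and LINC02506 at 9.08 ± 1.04 CPM per kb. LINC02381 and LINC02506 overlapped between libraries, and LINC00674 overlapped LINC02506. LINC02593 starts 2912 bases from SAMD11, a coding gene it faces head to head.

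Rh30 had a broader top. LINC00545 reached 56.8 ± 1.55 CPM per kb, LINC03033 44.1 ± 1.17, LINC02544 38.6 ± 3.39, LINC00601 26.1 ± 2.12 and LINC01563 22.7 ± 0.562 (SD, n = 3). All 5 were nearly silent in ES8 sgCTL cells, where their 3 libraries together held 0 to 2 counts each. LINC03033 had the most reads, with 4624 to 5125 per Rh30 sgCTL library against 0, 0 and 2 in ES8, from a gene at chr14:61570540-61658696. LINC00545 shares 242 of its 411 exon bases with a gene on the opposite strand, which leaves its own level uncertain.

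No read at all was counted in ES8 sgCTL libraries for 27 members and in Rh30 sgCTL libraries for 18. LINC02073 had 1920 to 2255 counts in Rh30 and was at least 823-fold higher than a floor of 3 counts per library in ES8. The same bound was at least 681-fold for LINC01537, at least 500-fold for LINC00601 and at least 345-fold for LINC02544. In the other direction, LINC00960 had 275 to 305 counts in ES8 and was at least 83.3-fold higher there, LINC01727 at least 62.1-fold, LINC01152 at least 42.7-fold and LINC02253 at least 33.0-fold. Depth limits these bounds, which follow the level in the expressing line.

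RefSeq holds a promoter window (GRCh38.p14, 250 bases before to 50 after the start) for 135 member symbols, and 117 of those starts lie within 1000 bases of the 5′ end in the files. Windows were searched on both strands for GGAAGGAA, a pair of the GGAA units bound by EWSR1-ETS fusion proteins in Ewing sarcoma, and for CAGCTG, an E-box of the kind bound by myogenic factors. GGAAGGAA occurred in 1 of 20 windows of members restricted to ES8 (5.0%), in 3 of 31 restricted to Rh30 (9.68%), in 4 of 84 of members in both lines and in 3.58% of all 27305 windows. CAGCTG occurred in 5 of the 20 ES8-restricted windows, in 9 of the 31 Rh30-restricted windows, in 24 of the 84 and in 17.7% of all. Each motif was found in members restricted to either line. The sequences below give 1 match from each of 4 strongly line-restricted members, so that the letters counted can be seen, with the match in capitals (a motif on the other strand reads as its reverse complement, TTCCTTCC).
LINC01152, restricted to ES8, chr17:72030542-72030571, plus strand: ttgatacatccTTCCTTCCgctgctcctcg
LINC00545, restricted to Rh30, chr13:30882582-30882611, plus strand: aggccatatggagtggataTTCCTTCCaga
LINC01537, restricted to Rh30, chr11:72570642-72570671, plus strand: ttcattcccacaCAGCTGcccagacacagg
LINC01563, restricted to Rh30, chr17:21075541-21075570, plus strand: aattaacagaagCAGCTGcagctgggcctg
A match in such a window is not a binding site, and no binding was measured here.

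Line differences were partly shared with the nearest coding gene. Across the 158 members whose nearest coding gene was tested, the log2 ratios of Rh30 over ES8 had a Spearman rho of 0.39 (Pearson r = 0.40), and across the 28 pairs under 10000 bases apart rho was 0.60 (r = 0.68). These are correlations across genes, which share the same 6 libraries and are not independent replicates. Of the ES8-restricted members, 20 had a tested neighbour, of which 15 were higher in ES8 and 1 in Rh30. Of the Rh30-restricted members, 39 had a tested neighbour, of which 16 were higher in Rh30 and 11 in ES8. At the same thresholds, 28.7% of all 17925 genes tested were higher in ES8 and 22.2% in Rh30. LINC01727 lies 55950 bases head to head from NKX2-2, a homeobox gene that is a marker of Ewing sarcoma. NKX2-2 averaged 97.7 ± 3.58 CPM in ES8 sgCTL cells and 0 in Rh30. LINC01152 lies 90729 bases from SOX9, which encodes a transcription factor of cartilage and neural crest and was 2.43 lower on the log2 scale in Rh30 (log2 fold change -2.43). LINC01436 starts 671 bases from RUNX1, another transcription factor gene, and both were far higher in Rh30.

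**Figure D2:**
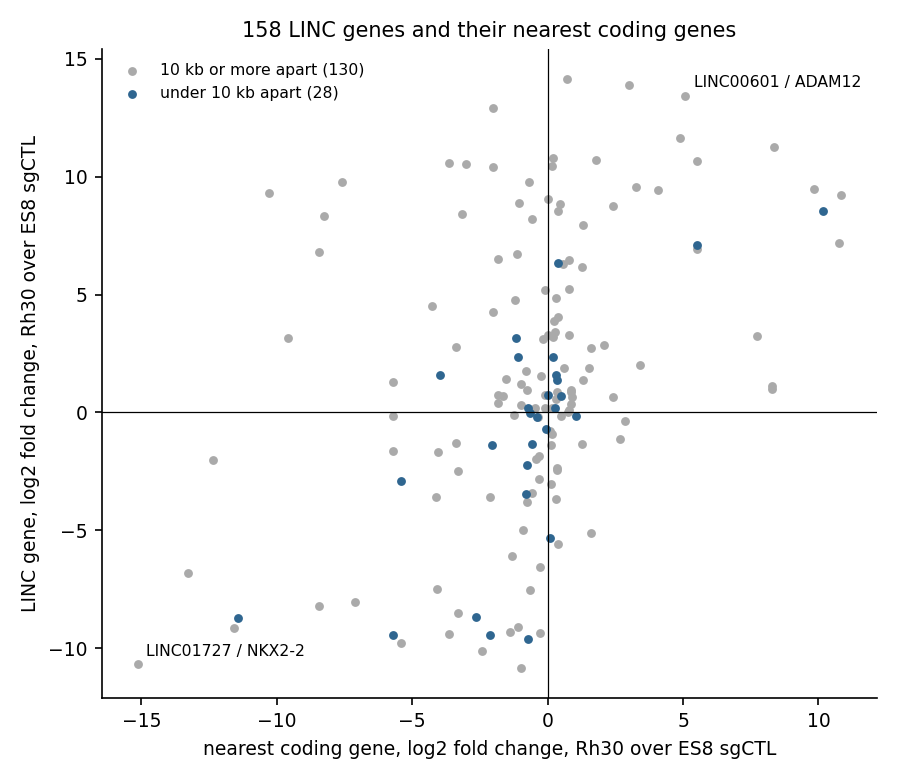
Log2 fold change of Rh30 over ES8 in sgCTL cells for 158 members (vertical axis) and their nearest tested coding gene (horizontal axis). Blue points are the 28 pairs whose 5′ ends lie under 10000 bases apart, and 103 of the pairs have the same sign.

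In ES8, knockdown of DNAJC17 called few LINC genes. At 2-fold and an edgeR adjusted p below 0.05, 1 of the 135 members tested rose (0.741%) and 2 fell (1.48%). The background was 1.66% of all 17143 genes up and 0.286% down. The members' share was thus lower than the background upward and higher downward. With 1 and 2 members called, these shares are too imprecise to compare with the background. The members' median log2 change was -0.09 (quartiles -0.31 and 0.12) against -0.02 for all genes (quartiles -0.23 and 0.21). Without the fold requirement 7 members rose and 16 fell (background 13.6% and 13.8%), together 17.0% of those tested against 27.4% of all genes. The other 64 members were too low to test.

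LINC00886, a multi-exon gene on chromosome 3, had 18, 29 and 25 counts in ES8 sgCTL libraries and 8, 7 and 8 after knockdown. The groups did not overlap, and the level fell by 1.36 on the log2 scale (SE 0.359, edgeR adjusted p = 0.0194). Its nearest coding gene, LEKR1, changed by -0.52 with an adjusted p of 0.36.

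LINC00638, a single-exon gene on chromosome 14, had 39, 62 and 41 counts in sgCTL and 21, 17 and 20 after knockdown, again without overlap. It fell by 1.02 (SE 0.297, edgeR adjusted p = 0.0295). Its neighbour ZBTB42, a zinc finger gene, changed by -0.17 (adjusted p = 0.55).

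LINC01588 was the only member to rise, from 11, 12 and 18 counts to 17, 30 and 31. The lowest knockdown library lay just below the highest control library in counts but above it in CPM. The log2 change was 1.19 (SE 0.335, edgeR adjusted p = 0.025). Its neighbour VCPKMT, a lysine methyltransferase gene 23957 bases away, rose by 0.76 in ES8 and by 0.72 in Rh30 (adjusted p = 0.0017 and 6.1e-04). Each of these 3 calls rested on at most 62 counts per library. LINC01588 lost significance without sgCTL A or B or knockdown B or C, LINC00886 without sgCTL B or C or knockdown B or C, and LINC00638 without sgCTL B or knockdown B or C.

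In Rh30, 1 of 158 members tested passed the same thresholds after knockdown (background 0.786% of 15391 genes down), and none rose (background 0.767% up). DESeq2 also gave 0 risen, and at an unadjusted p under 0.05 there were 26 higher and 20 lower, together 29.1% of members against 42.4% of all genes. The median log2 change was 0.01 (quartiles -0.25 and 0.22), beside 0.00 for all genes (quartiles -0.20 and 0.20). Without the fold requirement, 17 members rose and 14 fell (background 16.1% and 16.2%), together 19.6% of those tested against 32.3% of all genes.

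The member that fell was LINC01915, a 4-exon gene at chr18:24628182-24662198 with no read in ES8 sgCTL libraries. Its counts were 152, 149 and 172 in Rh30 sgCTL and 47, 57 and 80 after knockdown. The groups were well separated, and the log2 change was -1.25 (SE 0.204, edgeR adjusted p = 6.2e-04). It was called under each alternative tried, with values from -1.53 to -1.01. The count of fallen members was 4 without knockdown A and 2 without sgCTL C, and LINC01436 passed 2-fold upward without sgCTL C or knockdown A or B.

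Other members changed by under 2-fold in Rh30. LINC01134 dropped from 135, 138 and 131 counts to 87, 47 and 58 (log2 fold change -0.98, edgeR adjusted p = 8.9e-04), although C1orf174, whose start faces it at 79 bases, rose by 0.34 (adjusted p = 0.0054). LINC00545 dropped from 978, 1004 and 978 counts to 517, 485 and 476 (-0.90, adjusted p = 7.1e-06). Its nearest coding gene MEDAG, known from adipocyte differentiation and 23640 bases away, fell by 1.18 (adjusted p = 3.2e-05). LINC00511, a long gene on chromosome 17 reported to be raised in several carcinomas, dropped from 454, 492 and 510 counts to 293, 248 and 267 (-0.75, adjusted p = 8.8e-05). LINC01436 rose from 39, 41 and 51 counts to 88, 73 and 82 (0.99, adjusted p = 0.0018), while RUNX1 beside it changed by -0.05 (adjusted p = 0.65).

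**Figure D3:**
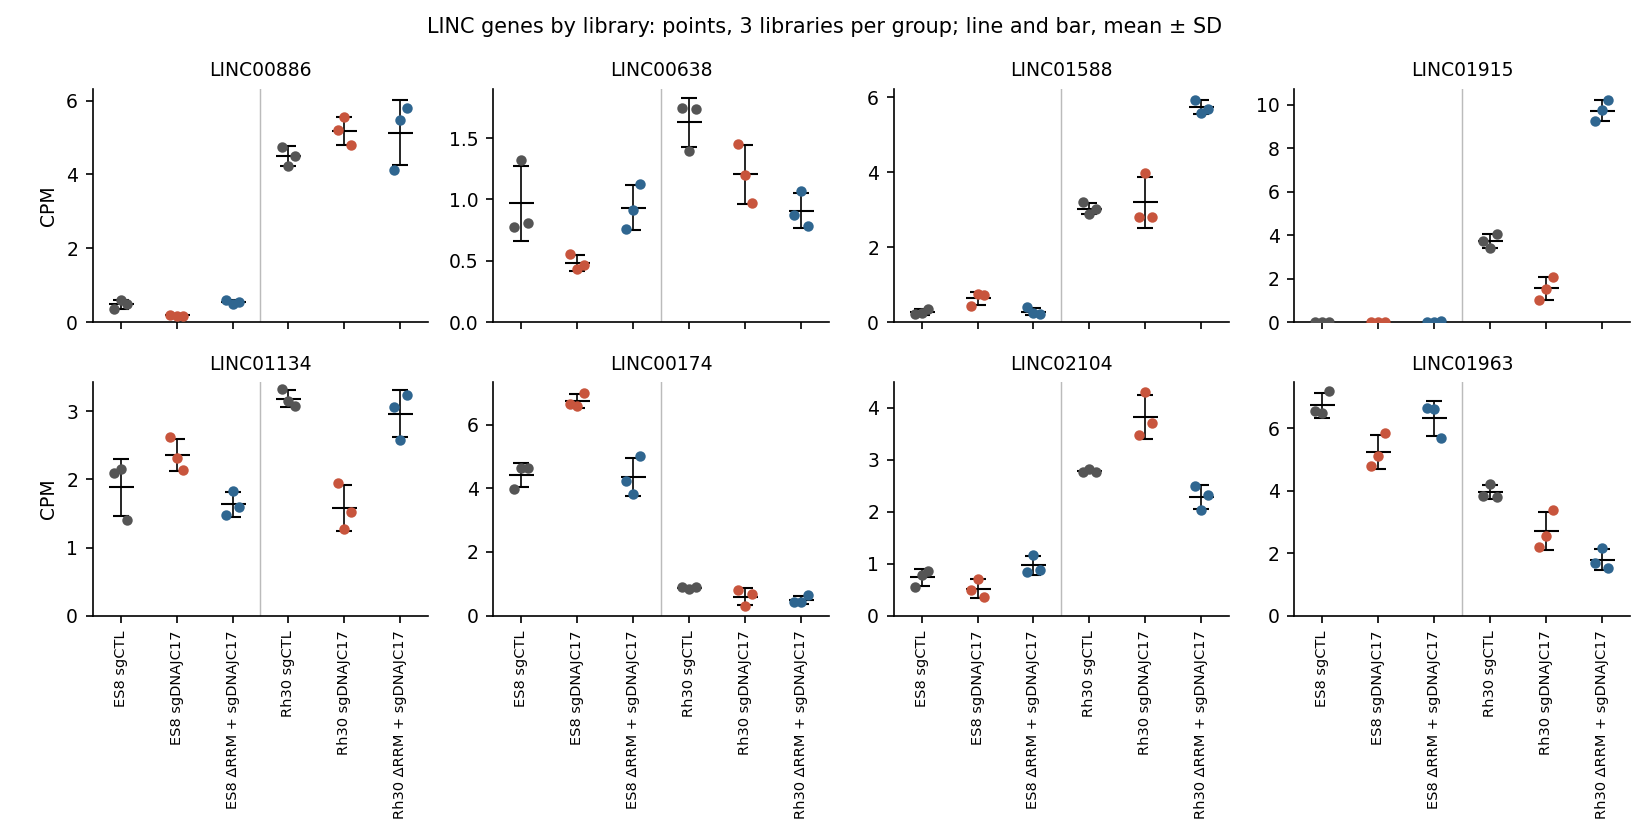
CPM of 8 members in each of the 18 libraries, by group, with points for libraries and a line and bar for the mean ± SD of 3. LINC00886, LINC00638 and LINC01588 changed after knockdown in ES8 and LINC01915 in Rh30, and vertical axes start at 0 and differ between panels.

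The lines were compared over the 94 members tested in both. The sign of the change was the same in 50 of them, and no member was called at 2-fold in both lines. LINC01963 alone had an adjusted p under 0.05 in each line, falling by 0.38 in ES8 (328, 304 and 365 counts to 181, 200 and 252, adjusted p = 0.028) and by 0.54 in Rh30 (156, 184 and 162 counts to 98, 94 and 129, adjusted p = 0.021). A test of the difference itself, the interaction of line and knockdown over the 12 parental libraries, called 6 of 199 members, 3.02% against 9.78% of all 18899 genes. Since 78 of the 199 had at most 3 counts in each sgCTL library of one line, where a change has little precision, these shares are not like for like. Among the 121 present in both lines, 5 were called (4.13%), but some of the 121 were also too low to test in one line. Members had larger errors in this test, with a median SE of 0.59 against 0.18 on the log2 scale for all genes.

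LINC01134 gave the smallest p. It fell in Rh30, while in ES8 its counts were 105, 101 and 71 before and 99, 91 and 92 after knockdown, and the change was 1.26 lower in Rh30 (interaction -1.26, SE 0.264, edgeR adjusted p = 0.0052). LINC00886 fell in ES8 and in Rh30 had 193, 185 and 192 counts before and 233, 204 and 183 after (interaction 1.60, SE 0.345, adjusted p = 0.0063). LINC00174 rose in ES8 from 200, 218 and 236 counts to 252, 258 and 301 (0.58, adjusted p = 0.0036), and in Rh30 had 37, 36 and 38 before and 36, 11 and 26 after (interaction -1.07, adjusted p = 0.024). LINC02104 rose in Rh30 from 112, 123 and 118 counts to 156, 158 and 142 (0.47, adjusted p = 0.017), with 28, 37 and 44 before and 19, 28 and 15 after in ES8 (interaction 1.03, adjusted p = 0.044). LINC01134 and LINC00886 were called in each alternative tried. LINC00174 was lost without ES8 sgCTL A, Rh30 sgCTL A or C or Rh30 knockdown B, and LINC02104 without ES8 sgCTL B or C, ES8 knockdown A or C, any Rh30 sgCTL library or Rh30 knockdown B or C. The count was 3 without ES8 sgCTL A or B and 2 without Rh30 sgCTL A. The other two, LINC02018 and LINC01550, turned on 10 or fewer counts per library in one line.

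**Figure D4:**
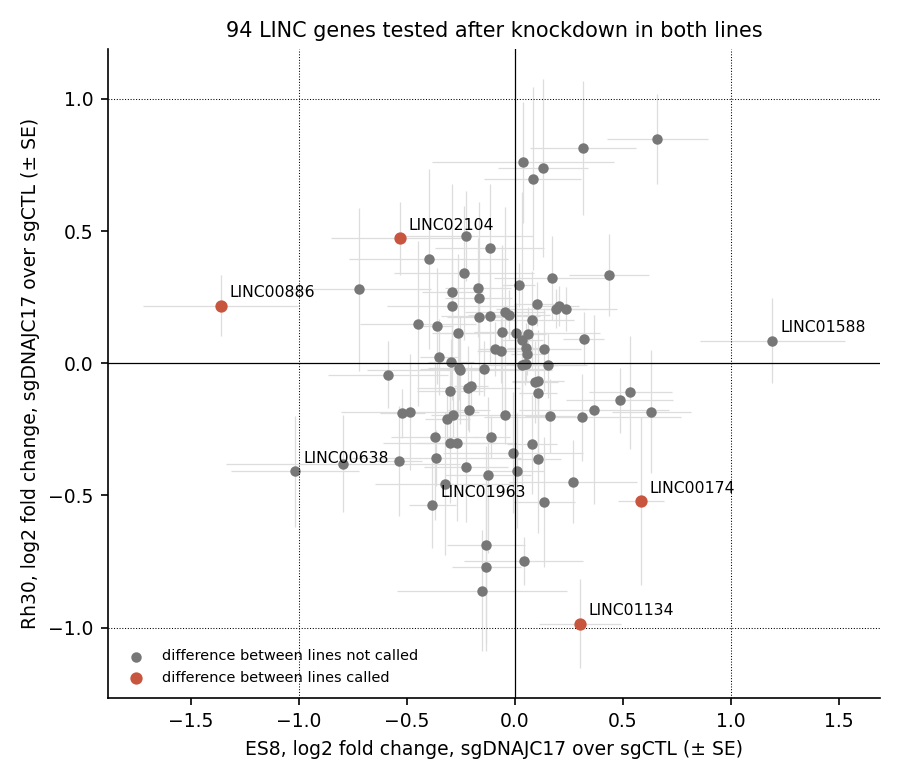
Log2 fold change of sgDNAJC17 over sgCTL with its SE in ES8 (horizontal axis) and Rh30 (vertical axis) for the 94 members tested in both lines. Dotted lines mark 2-fold changes, red points are members whose change differed between the lines, and no point lies beyond 2-fold in both.

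With the ΔRRM cDNA in ES8, members stood near their sgCTL levels. None of 135 was called against sgCTL by edgeR or by DESeq2, against 0.0349% of all 17199 genes by edgeR, and 11 had an unadjusted p under 0.05, 8.15% of members against 13.4% of all genes. The quartiles of the members' log2 difference were -0.19 and 0.12. Against knockdown cells, 1 rose and 1 fell (background 0.48% up and 1.49% down of 17099 genes). LINC00886 rose from 8, 7 and 8 counts to 27, 23 and 26 (1.53, edgeR adjusted p = 0.015), a range that overlaps its 18 to 29 counts in sgCTL. LINC03052 fell from 91, 98 and 100 counts to 31, 59 and 50 (-1.23, adjusted p = 0.0049), beside 50, 67 and 77 in sgCTL. It shares 909 of its 1594 exon bases with a gene on the opposite strand. The call of LINC00886 was lost without knockdown B or C or ΔRRM A or C, the last being the library that stood apart, and that of LINC03052 in none of these. The knockdown libraries enter both this comparison and that with sgCTL. The summed CPM of the 10 Ewing sarcoma markers was 1840 to 1914 in ES8 sgCTL libraries, 1659 to 1695 after knockdown and 1778 to 1880 with ΔRRM, with none of the 10 at 0. The 12 rhabdomyosarcoma markers summed to 139 to 141, 112 to 125 and 128 to 137 CPM there, with 0 to 2 of them at 0 in each library. The 17 epithelial markers summed to 308 to 314, 291 to 352 and 291 to 305 CPM, with 0 to 4 at 0. The part of these markers in the ES8 results was not tested.

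Rh30 cells with the ΔRRM cDNA differed from sgCTL at many genes, LINC genes among them. Of 158 members tested, 15 rose (9.49%) and 6 fell (3.8%) at an edgeR adjusted p under 0.05 and 2-fold. Among all 15442 genes, 6.66% rose and 3.32% fell. Without the fold requirement, 61 members rose (38.6%) and 26 fell (16.5%), against a background of 33.8% and 35%. The members' median log2 difference was 0.18 (quartiles -0.25 and 0.65) beside -0.01 for all genes (quartiles -0.47 and 0.49). Scaling by library totals in place of TMM lowered the median of all genes by 0.24 and gave 6 risen and 12 fallen against sgCTL. Correction for GC content and exonic length gave 10 risen and 11 fallen against sgCTL. The ΔRRM difference from sgCTL itself differed between the lines for 35 of 199 members (17.6%, against 41.4% of all 18854 genes, edgeR interaction), and for 32 of the 121 present in both lines (26.4%). As with knockdown, these shares are not like for like, since many members had few counts in one line. Differences in this group include those between the cDNA-expressing line and the parental line, and these cannot be told apart without an sgCTL library of the former.

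The summed level of all members was 1046 ± 9.68 CPM in Rh30 sgCTL, 1031 ± 28.6 after knockdown and 1390 ± 5.58 in ΔRRM cells (SD, n = 3). In ES8 the same sums were 843 ± 5.08, 813 ± 5.17 and 836 ± 7.57 CPM. LINC03033 alone went from 117 ± 3.10 to 232 ± 7.96 CPM in Rh30, and without it the Rh30 sums were 928 ± 6.98, 909 ± 21.4 and 1158 ± 12.6. The 49 members nearly absent from ES8, LINC03033 among them, summed to 470 ± 10.9, 463 ± 28.9 and 750 ± 19.2 CPM in the 3 Rh30 groups, and the 121 present in both lines to 575 ± 1.58, 568 ± 1.17 and 640 ± 16.9 CPM. These sums depend on TMM scaling. As a share of all counts, the members took 0.0994% to 0.101% in Rh30 sgCTL libraries and 0.114% to 0.118% in ΔRRM libraries. The 121 had 23397, 25162 and 24389 counts in sgCTL libraries of 41720955, 45934827 and 45028207. They had 24089, 24302 and 18382 in ΔRRM libraries of 44624711, 45031439 and 35342393, so their share of all counts was not higher there.

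LINC00973 had the largest log2 difference among the members that rose in the fit with TMM, but not with correction for GC content and exonic length. Its counts were 95, 62 and 108 in Rh30 sgCTL, 95, 120 and 132 after knockdown and 288, 292 and 236 in ΔRRM cells, where every library exceeded all others. The log2 difference from sgCTL was 1.94 (SE 0.145, edgeR adjusted p = 2.1e-18), and 1.15 with that correction. The corrected value was below those of LINC01358 (1.28), LINC01943 (1.26), LINC01121 (1.22), LINC01204 (1.21) and LINC01411 (1.20). LINC01943 went from 51, 72 and 58 counts to 152, 145 and 146 (1.62, adjusted p = 1.4e-12). It shares 100 of its 1475 exon bases with a gene on the opposite strand.

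LINC03033, LINC01358 and LINC01563 changed at high counts. LINC03033 had 4624, 5125 and 5108 counts in sgCTL, 5103, 4521 and 4890 after knockdown and 8292, 9268 and 6689 in ΔRRM cells (1.03 against sgCTL, SE 0.062, edgeR adjusted p = 3.9e-22). Knockdown and sgCTL overlapped for this gene. LINC01358, whose start lies 149316 bases head to head from that of JUN, went from 617, 657 and 701 counts to 1192, 1228 and 1108 (1.17, adjusted p = 4.2e-20), whereas JUN, which encodes an AP-1 subunit, was 0.33 lower (log2 fold change -0.33). LINC01563 went from 673, 743 and 741 counts to 1209, 1390 and 1051 (1.08, adjusted p = 1.4e-19) while its neighbour USP22, a deubiquitinase gene, changed by -0.70. With correction for GC content and exonic length, LINC01563 was 0.43 and LINC03033 0.62 above sgCTL, and neither passed 2-fold. With library totals in place of TMM, LINC03033 (0.79), LINC01358 (0.93) and LINC01563 (0.85) all fell short of it.

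There were 6 that fell. Those with counts given here had far fewer sgCTL reads than LINC03033, LINC01358 and LINC01563. Among them, LINC01602 had more than the risen LINC00973 and LINC01943. LINC00504 had 64, 77 and 87 counts in sgCTL and 22, 19 and 12 in ΔRRM cells (-1.78, SE 0.27, edgeR adjusted p = 3.8e-08). LINC01602 had 121, 133 and 116 against 42, 23 and 28 (-1.66, adjusted p = 5.1e-10, and -2.35 with GC and length correction). LINC02846 had 22, 17 and 15 against 4, 3 and 6 (-1.70, adjusted p = 0.0026). Its neighbour TMEM250, 9439 bases away, fell by 1.10. LINC01436 fell by 1.52 and RUNX1 beside it by 0.56. LINC01963 and LINC02968 were the other two. LINC01515 passed only against knockdown, with 12, 13 and 11 counts there and 1, 5 and 2 in ΔRRM cells (-1.92). Among the 22 members whose tested neighbour lies under 10000 bases away, the ΔRRM differences of member and neighbour had a rho of 0.46 (r = 0.46). The 98 farther pairs had a rho of -0.05 (r = 0.00), again across genes. After knockdown, pairs under 10000 bases apart had a rho of 0.18 in ES8 (r = 0.24, 24 pairs). In Rh30 the same rho was -0.12 (r = 0.07, 21 pairs).

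Against Rh30 knockdown cells, 16 members rose and 7 fell in ΔRRM cells (background 4.42% up and 3.36% down of 15309 genes). Library totals in place of TMM gave 11 and 10, and correction for GC content and exonic length gave 12 and 14. The comparisons of ΔRRM with sgCTL and with knockdown share the ΔRRM libraries, and values are given side by side. Some members lay on opposite sides of sgCTL in knockdown and ΔRRM cells and others on the same side. Of 14 lowered by knockdown at an edgeR adjusted p under 0.05, 7 were above sgCTL with ΔRRM and 3 below, at that threshold. Of 17 raised, 6 were below and 5 above. Among all genes, 33.8% were above sgCTL with ΔRRM and 35% below. LINC01963 was below sgCTL in both groups. LINC01915, lowered by knockdown to 47 to 80 counts, had 338, 374 and 299 in ΔRRM cells, 1.42 above sgCTL (edgeR adjusted p = 9.3e-17) and 2.66 above knockdown on the log2 scale. With GC and length correction it was 0.86 above sgCTL, short of 2-fold. LINC01411 ran from 133, 149 and 147 counts in sgCTL to 105, 67 and 94 after knockdown and 307, 288 and 241 with ΔRRM. LINC01204 ran from 134, 127 and 148 to 107, 94 and 98, a difference that missed the threshold (-0.35, edgeR adjusted p = 0.072), and then 300, 321 and 245.

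LINC00545, LINC00511 and LINC02511 had the same order at higher counts. LINC00545 had 1256, 1138 and 920 counts in ΔRRM cells, 0.48 above sgCTL (edgeR adjusted p = 4.9e-08), and MEDAG was 0.72 above. LINC00511 had 726, 620 and 489, 0.65 above (adjusted p = 2.4e-09). LINC02511 went from 1039, 1078 and 1063 counts to 806, 652 and 799 after knockdown and 1465, 1626 and 1287 with ΔRRM, 0.79 above sgCTL (adjusted p = 3.4e-15). In reverse order, LINC01436 had 11, 11 and 14 counts in ΔRRM cells, below sgCTL and below its raised knockdown level (-2.53 against knockdown, adjusted p = 4.3e-12). LINC00504 (112, 92 and 105 counts after knockdown) and LINC01602 (212, 170 and 150) were likewise raised by knockdown, by 0.54 and 0.62 on the log2 scale, and lowest in ΔRRM cells.

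**Figure D5:**
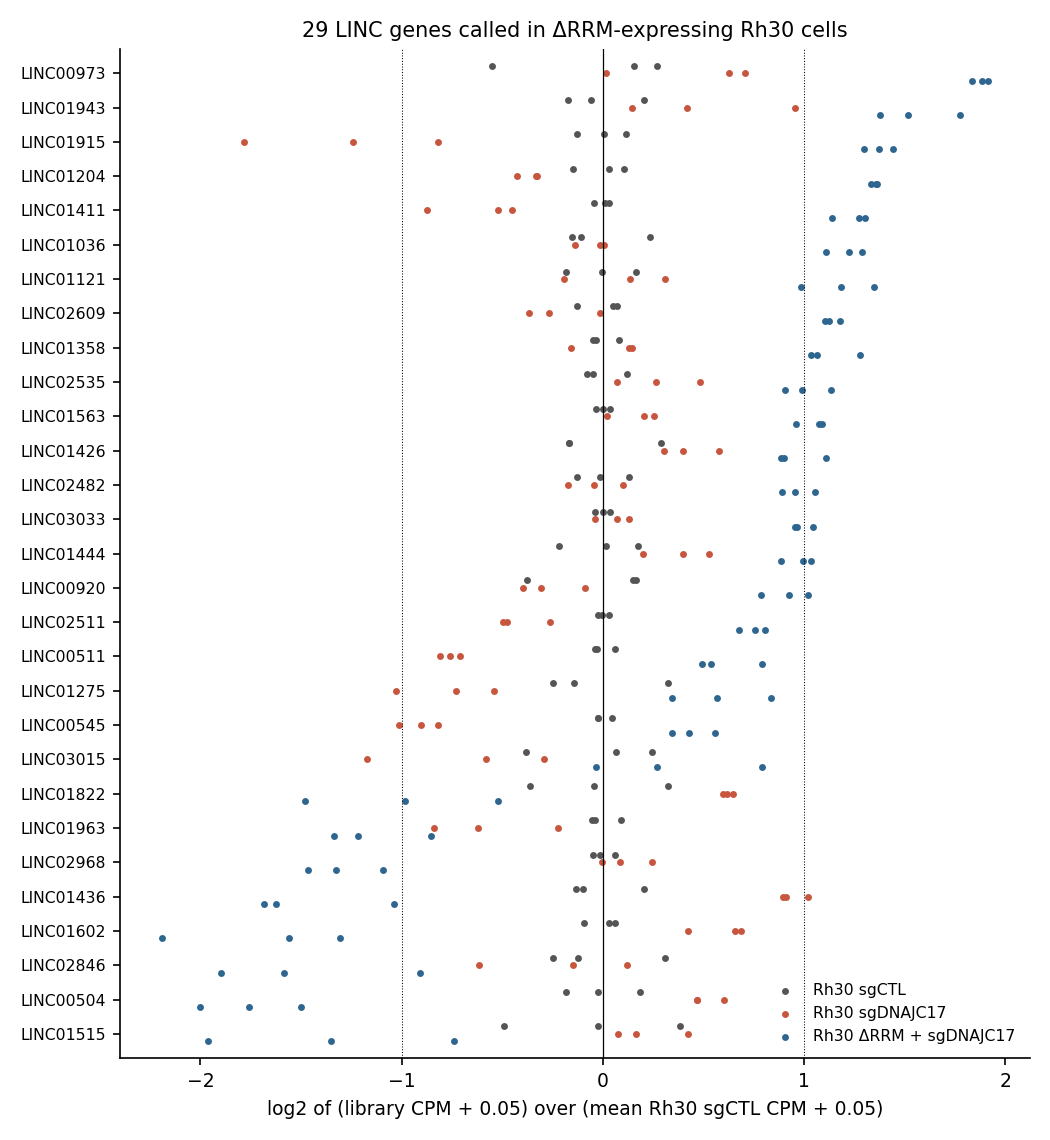
The 29 members called in Rh30 ΔRRM cells against sgCTL or against knockdown, with 1 point per library: the log2 ratio of its CPM plus 0.05 to the mean sgCTL CPM plus 0.05. Dotted lines mark 2-fold, and LINC01915, LINC01411, LINC00511 and LINC00545 lie left of 0 after knockdown and right of 0 with ΔRRM.

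Markers of cell type moved along these Rh30 groups. The summed CPM of the 12 rhabdomyosarcoma markers was 3700 to 3826 in control libraries and lower in the others, at 3068 to 3335 with sgDNAJC17 alone and 2401 to 2665 with the cDNA as well. In each library 1 gene of the list had 0 counts. CHRND and CHRNG, subunit genes of the muscle acetylcholine receptor, were called lower after knockdown, and MYCN in ΔRRM cells, each against sgCTL. The 17 epithelial markers summed to 267 to 288, 289 to 313 and 338 to 369 CPM, with 3 or 4 of the list at 0 in sgCTL libraries and none at 0 in the other 6. KRT8, KRT18, KRT19, CDH1 and TFF1, 5 of the 11 epithelial genes tested, were called higher than sgCTL after knockdown and in ΔRRM cells. Of all genes, 0.767% were called up after knockdown and 6.66% in ΔRRM cells. Their part in the LINC results was not tested. A change in the mix of cells and a change in RNA per cell cannot be told apart in bulk RNA.

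Of 20 LINC genes chosen for being well known, 11 were members (LINC00461, LINC00467, LINC00511, LINC00641, LINC00662, LINC00665, LINC00667, LINC00839, LINC00963, LINC01116 and LINC01410). None of them was called at 2-fold after knockdown in either line. At an adjusted p under 0.05 alone, LINC00665 rose in ES8 (1500, 1470 and 1578 counts to 1418, 1406 and 1566 in smaller libraries, 0.23 on the log2 scale) and LINC01116 fell there (98, 79 and 83 to 28, 32 and 59, -0.86, edgeR adjusted p = 0.024). LINC00511 fell and LINC00839 rose in Rh30 (0.30, adjusted p = 0.015). LINC00461, whose neighbour MEF2C encodes a muscle and neural transcription factor, changed by -0.37 and -0.28 with adjusted p-values of 0.21 and 0.53. In Rh30 ΔRRM cells 4 of 9 tested were higher than sgCTL and 2 lower at an adjusted p under 0.05 (background 33.8% and 35% of all genes), none at 2-fold, from LINC00839 at 0.89 to LINC00641 at -0.64. Between the lines, 5 of the 11 were higher in Rh30 and 5 in ES8 at an edgeR adjusted p under 0.05. In the same comparison, 87.9% of all genes had an unadjusted p under 0.05. LINC00467 was listed at 0 in all ES8 libraries and at 330 to 485 counts in Rh30.

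Among 50 long non-coding RNAs that carry other names, 48 were in the files. In ES8, 1 of 35 tested was called after knockdown (background 1.66% of all genes up and 0.286% down). It was EPB41L4A-AS1, which rose by 1.14 (edgeR adjusted p = 5.4e-05). In Rh30, 1 of 31 was called (background 0.767% up and 0.786% down). It was MEG3, an imprinted RNA, which fell from 2017, 1850 and 1946 counts to 993, 647 and 759 (-1.19, adjusted p = 1.1e-06) and had 1696, 1993 and 1985 counts in ΔRRM cells. GAS5, a host gene of small nucleolar RNAs, MYOSLID, LINCMD1, HOTAIRM1 and DLEU1 were called higher in Rh30 ΔRRM cells than in sgCTL. They were 5 of 32 tested (background 6.66% of all genes up), and none of the list was called lower (background 3.32%). In ES8 none was called in that comparison by edgeR.

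The minimum count set the membership. LINC02846 and LINC02037 entered with means of 20.1 and 20.3 counts, and LINC01894 and LINC01267 stayed outside with 19.9 each, both nearly silent in ES8. Below the minimum, 2018 LINC symbols remained. In ES8 knockdown 95 of them were tested, with 6 higher and 3 lower (background 1.66% and 0.286% of all genes). In Rh30 knockdown 86 were tested, with 3 higher and 4 lower at the same thresholds (background 0.767% and 0.786%). Calls were thus more frequent below the minimum than among all genes, at low counts.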

How the data were processed

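RNA-seq (poly-A selected, NEBNext Ultra) was available for 18 libraries, grouped by their titles. Per the labels, the authors trimmed reads with Trimmomatic 0.36, aligned them to GRCh38 with STAR 2.5.2b and deposited raw counts per gene from featureCounts (Subread 1.5.2), with no normalization. The paper names another build, but 85.3% of 19039 coding starts in the files lay within 1000 bases of GRCh38 and 4.12% of 19583 of GRCh37. Annotation release and strand setting are not given in the sources used here. Symbols were matched for 40373 of 57500 gene IDs. Gene types, including which genes are coding, were taken from GENCODE by gene ID.

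Each comparison was fitted over its own groups in edgeR 4.0.16 on R 4.3.3 (filterByExpr, TMM, quasi-likelihood F-test, Benjamini-Hochberg over all genes tested). Members were called at a 2-fold change with an adjusted p under 0.05, and the tests of line against treatment needed the adjusted p alone. CPM values use TMM over all 18 libraries. Fold bounds against silent groups use a floor of 3 counts per library. Depth (35342393 to 48245989 counts) leaves members imprecise, with a median SE of 0.18 against 0.11 for all genes after ES8 knockdown, and floors cover counting error only. Alternatives were DESeq2 1.42.0, other size factors, filters and thresholds, 1 joint fit, a replicate block and leaving out each library. Scaling by library totals and correction for GC content and exonic length were further alternatives, chosen after seeing the data.

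Named members are those called after knockdown, extreme between the lines or per kilobase, most changed in ΔRRM cells, next to the minimum count, or on the list of well-known genes. LINC01963, LINC02104, LINC01550, LINC01358, LINC01121, LINC02511 and LINC02968 were named after their values were seen. Coding genes named are the nearest by 5′ end. Members and lists were chosen with earlier results of these data known. Promoter windows come from RefSeq.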

Additional observations from a re-analysis of the deposited data

Results flagged for a closer look

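The response to knockdown differed between the lines for 6 members by a test of the difference itself (edgeR interaction of line and knockdown, adjusted p under 0.05, given as Rh30 minus ES8 on the log2 scale). It was -1.26 for LINC01134, 1.60 for LINC00886, 2.56 for LINC02018, -1.07 for LINC00174, 1.03 for LINC02104 and 2.04 for LINC01550. LINC02018 had 9, 10 and 7 counts in ES8 sgCTL and 2, 0 and 2 after knockdown, and was lost without ES8 sgCTL A or B, ES8 knockdown B or Rh30 sgCTL A. LINC01550 had 2 counts in each Rh30 sgCTL library and 10, 4 and 5 after knockdown, and was lost without any one of 10 of the 12 libraries.

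The ΔRRM difference from sgCTL differed between the lines by the same kind of test for 11 of the members the text names or that changed after knockdown. It was higher in Rh30 for LINC00839 (0.67) and LINC01588 (0.90). It was lower in Rh30 for LINC00641 (-0.57), LINC00963 (-0.52), LINC02846 (-1.97), LINC01515 (-1.61), LINC02381 (-0.41), LINC01602 (-2.18), LINC00504 (-2.30), LINC00174 (-0.76) and LINC02732 (-2.80). LINC02732 had 0 to 6 counts in each Rh30 sgCTL or ΔRRM library, and LINC00504 and LINC01602 had 0 to 11 in each ES8 one. No cause was tested for any of these. Groups of 3 libraries are too small for a search for single outlying libraries.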

How the results depend on the processing

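Low counts set the limits here. Counts are given as risen and fallen members. ES8 knockdown (1 and 2) gave 0 and 0 at an adjusted p under 0.01, 7 and 16 without a fold requirement, 1 fallen with a mean of at least 50 or with 10 counts in every library, and 0 to 1 risen and 0 to 2 fallen when leaving out 1 library. Rh30 knockdown (0 and 1) gave 17 and 14 without a fold requirement, 2 fallen with library totals or with GC and length correction, with or without the block, and 0 to 1 and 1 to 4 when leaving out 1 library. ΔRRM against sgCTL in Rh30 (15 and 6) gave 61 and 26 without a fold requirement, 3 fallen at a mean of 50, 6 and 12 with library totals and 11 fallen with GC correction, with or without the block. ΔRRM against knockdown in Rh30 (16 and 7) gave 59 and 24 without a fold requirement, 4 fallen at a mean of 50 and 14 with GC correction, with or without the block. In ES8 (1 and 1) it gave 0 risen at an adjusted p under 0.01, 11 and 7 without a fold requirement, 0 fallen at a mean of 50, 2 fallen with no filter or GC correction, 0 and 2 with 10 counts in every library, 3 and 4 in 1 fit of all 18 libraries, 3 risen with library totals, and 1 to 4 and 1 to 2 when leaving out 1 library. The line baseline (95 and 65) gave 57 and 36 at a mean of 50 and 28 and 23 with 10 counts in every library. The interaction with knockdown (6) gave 2 at an adjusted p under 0.01 and 2 to 8 when leaving out 1 library, and that with ΔRRM (35) gave 19 at 0.01 and 15 with a 2-fold requirement. The causes were not tested beyond the fewer genes or libraries that a setting leaves. LINC00511 in ES8 knockdown (0.04, not called) turned to -0.00864 with library totals and ranged from -0.29 to 0.20 when leaving out 1 library, and LINC00963 between the lines turned from -0.15 to 0.0827 with GC correction.

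Letters were not treated as pairs. Same-lettered libraries did not deviate together in the comparisons other than Rh30 knockdown. In Rh30 knockdown, correlations of their deviations were 0.20, 0.072 and 0.097 for the same letter and -0.13 to 0.043 for different letters. A pairing of those libraries thus remains possible. With the replicate block, 1 member fell after ES8 knockdown and 2 rose in ES8 ΔRRM cells against knockdown. The other counts with the block were within 1.5 times those above.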
